A study of Homo sapiens with 2 samples.

Results

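The genes described are 45 genes of the extracellular matrix: collagens, the enzymes that crosslink them, matrix glycoproteins and proteoglycans. The rule lists them by name, in a choice made with earlier results of these data known, and their 136 probe sets, 1 to 8 for each gene, are those that the array's annotation assigns to exactly 1 of these genes. The array named 19775 genes in all. RNA came from MDA-MB-231 cells, a human triple-negative breast cancer cell line, established and mesenchymal in shape. The siKMO cells were transfected for 48 h with siRNA against KMO, which encodes the tryptophan-pathway enzyme kynurenine 3-monooxygenase, and the control cells (siCon) for the same time with control siRNA. The array names instead read shLUC and shK421, a style common for hairpin constructs, so the labels did not settle the construct.

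1 array was made for each condition. No difference below has a replicate check, no test was possible, and each value describes this pair of cultures. Levels are log2 values after robust multi-array averaging (RMA), on which a difference of 1 is 2-fold, and every difference is siKMO minus siCon. Each gene is read by whichever of its probe sets has the highest 2-array mean, and it counts as measured where that mean reaches 6. Of 17 genes of unrelated tissues that had a probe set, such as liver, muscle and lens genes, 16 lay under this minimum.

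The matrix is built in layers. Fibrillar collagens give tensile strength once lysyl hydroxylases and lysyl oxidases have modified and crosslinked them, network collagens and perlecan form basement membranes, and fibronectin and other glycoproteins join both to integrins on the cell. Proteoglycans carry long sulfated sugar chains that bind water and growth factors, and those at the cell surface act as coreceptors. In breast tumours fibroblasts make most of the fibrillar collagen, while carcinoma cells contribute basement membrane components, fibronectin and crosslinking enzymes.

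The line's own markers were measured on both arrays. VIM, CD44, EGFR, KRT18 and AXL lay between 9.84 and 12.96 in the siKMO array and between 9.76 and 12.90 in the control array. ESR1 and PGR, hormone receptors that such tumours lack, were under the minimum on both arrays, and ERBB2 stood at 7.37 in siKMO and 7.44 in siCon. All 4 fibroblast markers, all 4 endothelial markers and all 4 leukocyte markers with a probe set were under 6 on both arrays. The fibroblast markers PDGFRA, PDGFRB, THY1 and FAP spanned 2.68 to 5.41 in siKMO and 2.55 to 5.82 in siCon. KMO was at background, with its 3 probe sets at 2.92, 2.51 and 2.35 in siKMO and at 2.95, 2.37 and 2.11 in siCon, so its RNA does not check the labels.

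Fibronectin was higher in the siKMO cells, and the lysyl hydroxylase PLOD2 and the proteoglycans SRGN and CSPG4 were lower. Of the 45 genes, 29 were measured. FN1 was at least 2-fold higher, which is 3.45% of the measured matrix genes beside 0.856% of all 8997 measured genes. PLOD2, SRGN and CSPG4 were at least 2-fold lower, 10.3% of the measured matrix genes beside 1.39% of all measured genes. CSPG4 passed the minimum only through its control level. At 1.5-fold the counts were 1 higher and 7 lower, against background shares of 5.19% and 5.41%, and the added genes were LOX, COL6A3, HSPG2 and COL4A5.

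The other 21 measured matrix genes differed by less than 1.5-fold by the probe set chosen for each, but for THBS1 the 4 other passing probe sets exceeded 1.5-fold. The second passing probe set of COL7A1 was 1.68-fold higher by deposited values, and at least 1.38-fold with its control level taken as 6. In sum 9 of the 29 (31.0%) were higher and 20 (69.0%) lower by the chosen probe sets, beside 54.8% and 44.1% of all measured genes. COL5A1, COL6A1, LOXL2 and SDC2 count as lower here, though each also had a passing probe set that was higher. The median difference was -0.10 for the matrix genes and 0.04 for all measured genes. When probe sets with names that end in _x_at or _s_at, which can read more than 1 transcript, were left out, 17 matrix genes were measured. Their median was then 0.049, beside 0.035 for all genes measured in that setting, so the sign of the median was not settled. The central 95% of the differences of all measured genes ran from -0.82 to 0.74.

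**Figure D1:**
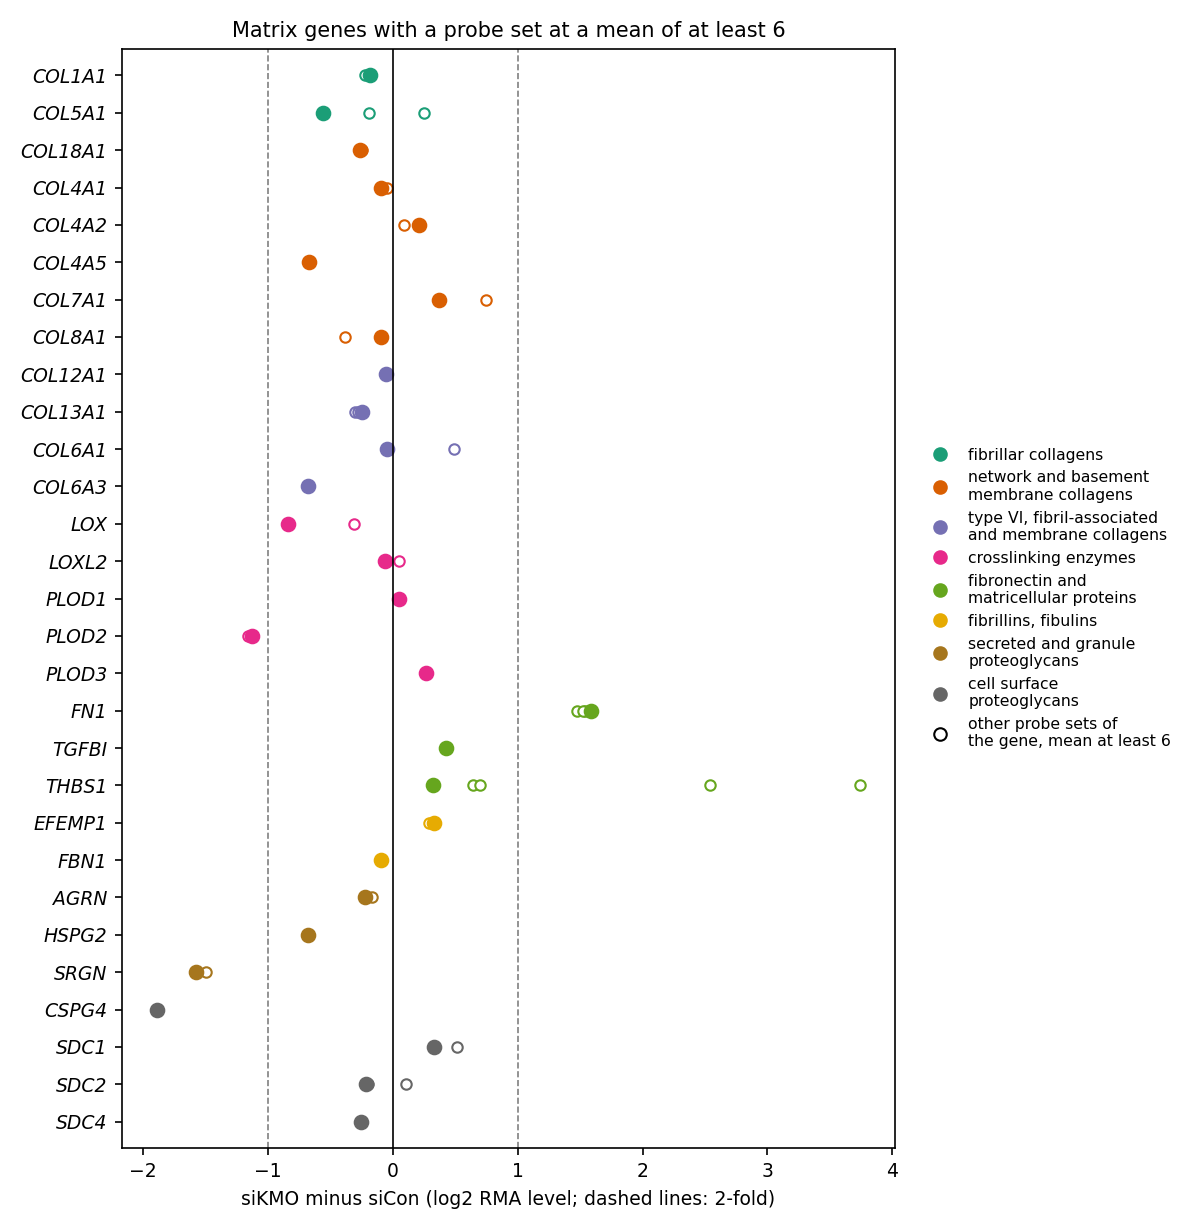
Differences between the arrays (siKMO minus siCon, log2 RMA level) for the 29 measured matrix genes, 1 array per condition. Filled points are the probe set chosen for the gene and open points its others that passed the minimum of 6; FN1 lies right of the 2-fold line, PLOD2, SRGN and CSPG4 lie left of it, and the points of THBS1 spread from 0.32 to 3.74, the last against a control level under 6.

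FN1 encodes fibronectin, the glycoprotein that cells assemble into fibrils through integrins and on which collagen is deposited. The probe set chosen for it stood at 10.99 in siKMO and 9.40 in siCon, a 3.00-fold higher level. That difference was the 9th highest of the 8997 measured genes. The other 3 passing probe sets stood at 10.96, 10.87 and 10.70 in siKMO and at 9.42, 9.40 and 9.18 in siCon. All 4 were therefore higher in siKMO, with differences of 1.47 to 1.59. All 4 also end in _x_at or _s_at. The remaining 3 probe sets of FN1 were under 6 on both arrays, so no direction was read from them.

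The promoter of FN1 is shown because this gene had the highest difference of the matrix genes by their chosen probe set. The 300 bases come from RefSeq on GRCh38.p14, at chr2:215436019-215436318 on the minus strand, and run from 250 bases before the annotated start to 50 after it, read along the gene. Capitals mark every match, on either strand, of 5 motifs. These are the core of the hypoxia-response element in its forms ACGTG or else GCGTG, the cAMP-response element, spelled TGACGTCA, the CCAAT box, spelled as its name says, and the GC box, spelled GGGCGG.
FN1: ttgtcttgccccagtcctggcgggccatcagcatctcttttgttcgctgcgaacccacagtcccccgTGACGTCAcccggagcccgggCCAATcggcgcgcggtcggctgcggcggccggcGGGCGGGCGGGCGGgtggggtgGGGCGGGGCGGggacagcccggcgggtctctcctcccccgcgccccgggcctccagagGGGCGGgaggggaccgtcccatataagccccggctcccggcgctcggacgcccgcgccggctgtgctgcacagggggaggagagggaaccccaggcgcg
A cAMP-response element begins 183 bases before the start and a CCAAT box 162 bases before it, followed by 6 GC boxes, some of which overlap each other. The cAMP-response element was found in 1.85% of all 35116 promoter windows, the CCAAT box in 34.6% and the GC box in 45.0%. Neither hypoxia core is in this window. These matches describe the letters and were not tested for binding.

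THBS1 encodes thrombospondin, a matricellular protein that activates latent TGF-beta and restrains vessel growth, and its probe sets gave unlike differences. The one chosen for the gene, 201110_s_at, stood at 11.13 in siKMO and 10.81 in siCon, a difference of 0.32. Probe sets 201109_s_at and 201108_s_at stood at 10.98 and 10.34 in siKMO and at 10.33 and 9.64 in siCon, differences of 0.64 and 0.70. By these 3 the gene was less than 2-fold higher.

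Other THBS1 probe sets lay far further apart. Probe set 201107_s_at stood at 8.75 in siKMO and 6.21 in siCon, a 5.82-fold higher level. Probe set 239336_at stood at 8.56 in siKMO and 4.82 in siCon, at least 5.91-fold higher with the control level taken as 6. Probe set 215775_at, whose mean was under the minimum, stood at 7.13 in siKMO and 4.32 in siCon, at least 2.19-fold higher on the same terms. The last, 235086_at, was under 6 on both arrays at 5.35 in siKMO and 4.76 in siCon.

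The 6 THBS1 probe sets that reached 6 on an array were thus higher in siKMO, while the size of the difference depended on which was read. The 5 that passed were 3.42 apart in their differences (2.24 with levels under 6 taken as 6). No other gene among the 3777 with at least 2 passing probe sets had a wider spread by either reckoning. With the mean of its passing probe sets THBS1 differed by 1.59 and counted as 2-fold higher. That mean takes in 239336_at at its deposited difference of 3.74, a probe set that passed the minimum only through its siKMO level. Which stretch of the transcript each probe set reads was not analysed here, and a part of probe position or transcript form in the spread was not tested.

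**Figure D2:**
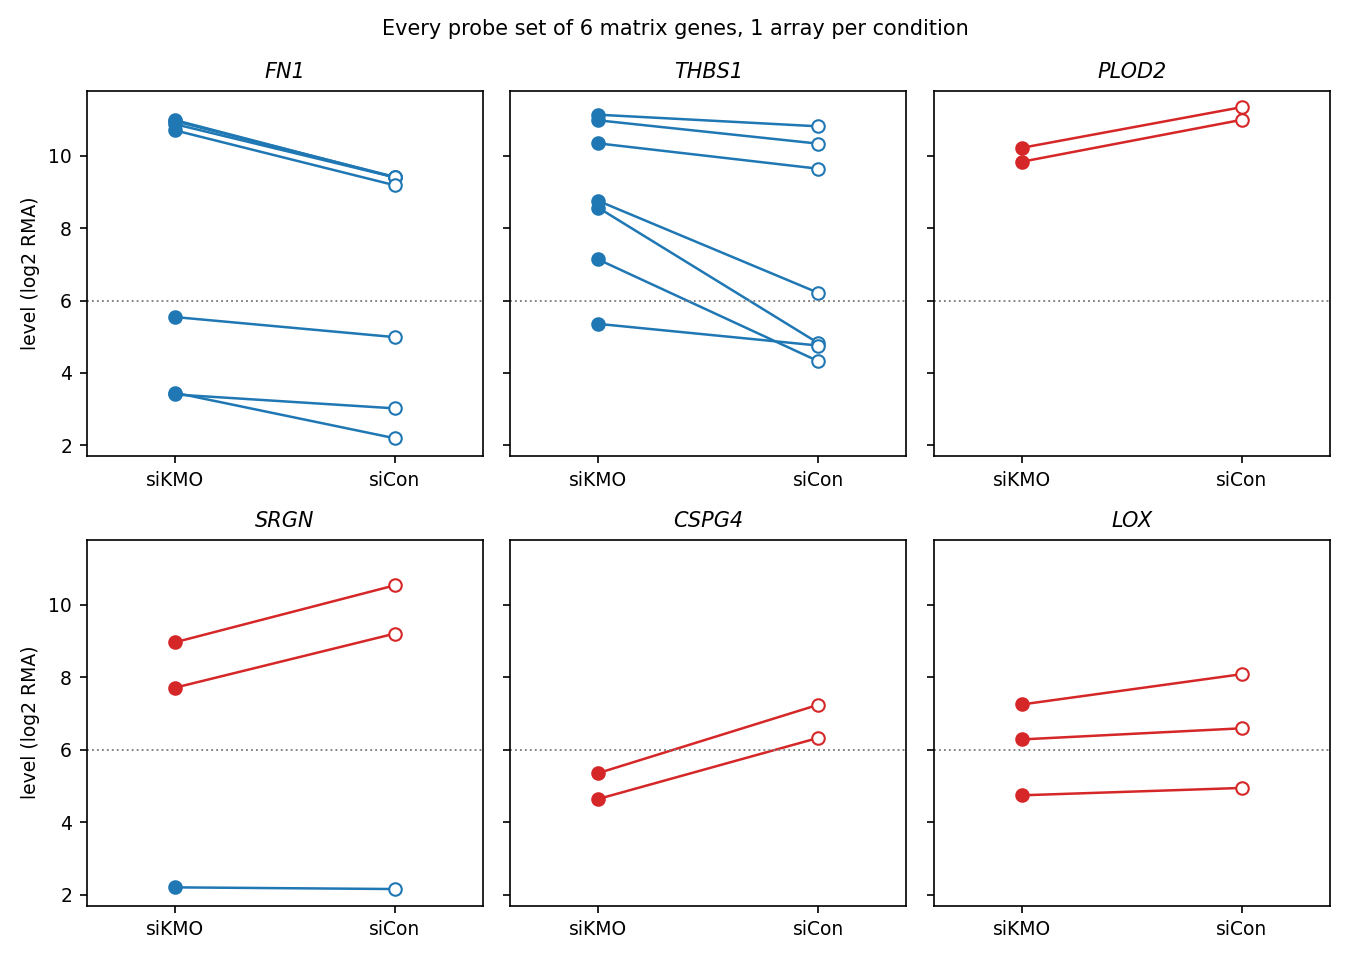
Level (log2 RMA) of every probe set of FN1, THBS1, PLOD2, SRGN, CSPG4 and LOX in the siKMO array (filled) and the siCon array (open), joined by a line that is blue where siKMO is higher and red where it is lower. The dotted line is the minimum of 6; the lines of FN1 above it run in parallel, those of THBS1 do not, and both CSPG4 lines cross it.

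TGFBI, EFEMP1 and FBN1, the other measured glycoproteins, differed by less than 1.5-fold. TGFBI, a TGF-beta-induced protein that binds collagen and integrins, stood at 10.20 in siKMO and 9.78 in siCon, 1.34-fold higher. EFEMP1, a fibulin of basement membranes and elastic tissue, stood at 10.55 in siKMO and 10.22 in siCon, and its second passing probe set differed by 0.29. FBN1, the main protein of microfibrils, stood at 6.70 in siKMO and 6.80 in siCon. SPARC, THBS2, TNC, POSTN, FBN2 and FBLN1 were not measured; SPARC stood at 2.82 in siKMO and 3.96 in siCon, both far under the minimum.

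Among the enzymes that modify collagen lysines, PLOD2 was the one that was lower by 2-fold. PLOD2 hydroxylates lysines in collagen telopeptides, which directs the type of crosslink that forms. One probe set stood at 10.22 in siKMO and 11.34 in siCon, a 2.18-fold lower level, and the second at 9.83 in siKMO and 10.99 in siCon. Their differences of -1.12 and -1.16 lay 0.034 apart. The relatives PLOD1 and PLOD3, which hydroxylate the helical part of collagen, had 1 probe set each. PLOD1 stood at 8.15 in siKMO and 8.10 in siCon, and PLOD3 at 9.64 in siKMO and 9.38 in siCon.

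LOX, the lysyl oxidase that starts crosslinking outside the cell, stood at 7.25 in siKMO and 8.09 in siCon, a difference of -0.84. Its other passing probe set stood at 6.29 in siKMO and 6.59 in siCon, a difference of -0.31, so both were lower but by unlike amounts. LOXL2, which also oxidises basement membrane collagen, stood at 11.05 in siKMO and 11.11 in siCon. LOXL1, linked to elastic fibres, missed the minimum narrowly with a mean of 5.99.

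The PLOD2 promoter is shown because both probe sets of this gene were lower together and because it holds hypoxia-response cores, PLOD2 being a known target of hypoxia-inducible factors. It lies at chr3:146161135-146161434 on the minus strand of GRCh38.p14, with the same source, span and capitals as above.
PLOD2: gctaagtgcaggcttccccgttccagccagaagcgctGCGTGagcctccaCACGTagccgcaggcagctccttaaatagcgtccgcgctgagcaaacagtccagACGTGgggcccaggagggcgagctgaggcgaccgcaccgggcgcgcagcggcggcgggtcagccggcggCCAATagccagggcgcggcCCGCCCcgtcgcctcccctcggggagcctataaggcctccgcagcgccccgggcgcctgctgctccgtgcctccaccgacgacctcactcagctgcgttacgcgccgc
ACGTG matched at 146 bases before the start on the gene's strand and at 200 bases before it on the opposite strand, printed there as its reverse complement. GCGTG matched at 213 bases before the start. ACGTG was present in 21.4% of all windows and GCGTG in 36.5%. Of the 32 matrix genes that had a window, 6 (18.8%) held ACGTG and 13 (40.6%) held GCGTG. The window was chosen for holding these cores, so their presence in it is no result. Binding at these letters was not measured, and a part of hypoxia-inducible factors in the PLOD2 difference was not tested.

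Collagens showed no 2-fold difference among the 12 measured genes. Of all measured genes 0.856% were higher and 1.39% lower by that size, so none among so few is close to the background. By their chosen probe sets COL4A5 and COL6A3 were more than 1.5-fold lower and no collagen was that much higher. The shares of all measured genes were 5.41% lower and 5.19% higher. Of the fibrillar collagens, COL1A1, a chain of the main collagen of bone and stroma, stood at 6.90 in siKMO and 7.08 in siCon. Its 3 other probe sets under the minimum lay at 4.26 or less in each array, so its measurement rests on 2 of 5 probe sets. COL5A1, a chain of the collagen that sets fibril diameter, stood at 8.60 in siKMO and 9.15 in siCon. Its other probe sets differed by 0.25 and -0.19, so its direction was not settled. The other fibrillar collagens among the genes described, COL1A2, COL3A1 and COL5A2, were under 6 on both arrays, with levels of at most 4.42.

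The basement membrane collagens COL4A1 and COL4A2, whose products assemble together into the common type IV network, differed little. COL4A1 stood at 8.62 in siKMO and 8.72 in siCon, and its other probe set differed by -0.05. COL4A2 stood at 9.76 in siKMO and 9.56 in siCon, and its other probe set differed by 0.09. The genes lie head to head, and the next sequence, from chr13:110307034-110307333 on the plus strand of GRCh38.p14, is shown because it holds both starts. It is the COL4A2 window; the annotated start of COL4A1, which runs the other way, is at base 124 and that of COL4A2 at base 251, with 127 bases from one to the other.
COL4A2: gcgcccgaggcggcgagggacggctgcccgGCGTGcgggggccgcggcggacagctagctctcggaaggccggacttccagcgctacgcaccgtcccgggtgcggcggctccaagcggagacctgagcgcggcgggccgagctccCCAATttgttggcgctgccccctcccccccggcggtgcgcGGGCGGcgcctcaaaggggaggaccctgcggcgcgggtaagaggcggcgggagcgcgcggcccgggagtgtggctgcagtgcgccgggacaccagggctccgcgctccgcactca
It holds 1 match each of the hypoxia core GCGTG, the CCAAT box and the GC box.

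COL4A5, a chain of a more restricted type IV network known from kidney and skin, stood at 7.83 in siKMO and 8.50 in siCon, a 1.59-fold lower level by its single passing probe set. COL7A1, which forms the anchoring fibrils under epithelia, went the other way, with 7.10 in siKMO and 6.73 in siCon. Its second probe set stood at 6.47 in siKMO and 5.72 in siCon, so COL7A1 was higher by both, with the control level of the second under 6. COL8A1, a short-chain collagen of vessels and cornea, stood at 9.95 in siKMO and 10.05 in siCon, and its second passing probe set differed by -0.39. COL18A1, the source of endostatin, differed by -0.26 and -0.25 in its 2 probe sets.

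Type VI collagen forms beaded filaments around cells from several kinds of chain. COL6A3 stood at 6.37 in siKMO and 7.05 in siCon, a 1.60-fold lower level from the only probe set of the gene. COL6A1 stood at 9.79 in siKMO and 9.84 in siCon, but its second passing probe set differed by 0.49, so its direction was not settled. COL6A2 stood at 5.66 in siKMO and 6.14 in siCon, with a mean of 5.90 under the minimum. COL13A1, a collagen that spans the plasma membrane, differed by -0.30 to -0.25 over 3 probe sets. COL12A1, which decorates fibrils, stood at 7.76 in siKMO and 7.82 in siCon, and COL16A1 of the same class was not measured.

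The proteoglycans held the lowest differences of the matrix genes. SRGN encodes serglycin, a small core protein that packs the contents of secretory granules and is also secreted by carcinoma cells. Its probe sets stood at 8.97 and 7.71 in siKMO and at 10.54 and 9.21 in siCon, with differences of -1.57 and -1.50. SRGN was thus 2.98-fold lower by the first, the 21st lowest difference of all measured genes. A further SRGN probe set lay at 2.20 in siKMO and 2.15 in siCon, under the minimum on both arrays.

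CSPG4 encodes a transmembrane chondroitin sulfate proteoglycan of pericytes, melanoma and some triple-negative breast cancers. It stood at 5.35 in siKMO and 7.24 in siCon, at least 2.37-fold lower with the siKMO level taken as 6. The other probe set stood at 4.64 in siKMO and 6.33 in siCon and had a mean under the minimum. Both were lower in siKMO, where neither reached 6.

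The syndecans, heparan sulfate coreceptors that bind growth factors and matrix, did not share a direction. SDC1 stood at 8.72 in siKMO and 8.39 in siCon, and its other probe set was higher by 0.52. SDC4, the syndecan of focal adhesions, stood at 10.76 in siKMO and 11.01 in siCon. SDC2 differed by -0.22, -0.20 and 0.11 over 3 probe sets. In the basement membrane, HSPG2 (perlecan) stood at 7.18 in siKMO and 7.86 in siCon, a 1.60-fold lower level by its single passing probe set. AGRN (agrin) stood at 6.90 in siKMO and 7.12 in siCon, and its second passing probe set differed by -0.17. The stromal proteoglycans VCAN, BGN, DCN and LUM were under 6 on both arrays, with a highest level of 4.94.

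Probe sets of one gene share the RNA of the same culture, so they test the reading of a transcript and not the treatment. Of the 19 matrix genes with at least 2 passing probe sets, 15 (78.9%) had all of them on the same side of 0, beside 72.6% of the 3777 such genes on the array. The exceptions were COL5A1, COL6A1, LOXL2 and SDC2. The differences within a matrix gene lay a median of 0.12 apart, beside 0.15 for all such genes, and 1 matrix gene, THBS1, exceeded 1, beside 0.98% of all. Of the 16 matrix genes not measured, COL6A2 and LOXL1 had a probe set above 6 on 1 array, and the other 14 lay under it throughout. Since RNA was taken from whole cultures, fewer cells with a transcript and less of it per cell cannot be told apart.

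Further matrix genes outside the 45 were read as 5 lists. Of the 181 genes listed, 65 were measured, with 4 (6.15%) higher and 7 (10.8%) lower by at least 1.5-fold, beside 5.19% and 5.41% of all measured genes. Among the higher genes B4GALT7 counts only by deposited values, since it was 1.35-fold higher with its control level taken as 6. By at least 2-fold 1 (1.54%) was higher and 1 (1.54%) lower, beside 0.856% and 1.39%. Their median difference was -0.04, beside 0.04 for all measured genes. Of the 26 other collagens with a probe set only COL27A1 was measured, at 6.54 in siKMO and 6.23 in siCon.

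Collagen folding and processing genes lay on both sides of 0, with a median of 0.06, beside 0.04 for all measured genes. Of 16 measured, 8 (50%) were higher and 7 (43.8%) lower by the chosen probe sets, near the 54.8% and 44.1% of all measured genes. Some had passing probe sets on both sides of 0. FKBP14, a prolyl isomerase of the endoplasmic reticulum that helps collagen fold, stood at 7.68 in siKMO and 6.86 in siCon, 1.76-fold higher, and its second probe set differed by 0.97. LOXL4, a lysyl oxidase relative, stood at 9.13 in siKMO and 9.91 in siCon, and P4HA1, a prolyl hydroxylase subunit, at 9.37 in siKMO and 9.96 in siCon. The collagen chaperone SERPINH1 differed by 0.34.

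Of 12 other matrix glycoproteins measured, 9 (75.0%) were lower by the chosen probe sets, beside 44.1% of all measured genes. Some of the lower ones also had a passing probe set that was higher. The median was -0.15, beside 0.04. CTHRC1, a secreted protein with a short collagen-like stretch, was the 1 gene past 2-fold, with 7.71 in siKMO and 6.33 in siCon, 2.60-fold higher by its single passing probe set. ECM1, a glycoprotein that binds perlecan, stood at 6.14 in siKMO and 6.88 in siCon, and MFGE8, an integrin ligand on dying cells, at 6.09 in siKMO and 6.77 in siCon. Among 5 other proteoglycans TGFBR3, the TGF-beta coreceptor betaglycan, stood at 8.30 in siKMO and 9.14 in siCon, and its second probe set differed by -0.75.

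Genes that build the sugar chains of proteoglycans had a median of -0.01 over 31 measured, beside 0.04 for all measured genes. Of these 31, 13 (41.9%) were higher and 17 (54.8%) lower by the chosen probe sets, beside 54.8% and 44.1% of all measured genes. Several of the lower genes also had a passing probe set that was higher. CSGALNACT2, which adds the first N-acetylgalactosamine of a chondroitin sulfate chain, stood at 8.45 in siKMO and 9.80 in siCon, 2.54-fold lower, and its 3 probe sets differed by -1.35 to -1.12. Its relative CSGALNACT1 stood at 8.04 in siKMO and 8.68 in siCon, 1.56-fold lower. HS3ST3B1, a heparan sulfate sulfotransferase, was 1.54-fold higher, with 8.64 in siKMO and 8.02 in siCon. B4GALT7, which builds the linker shared by both chain types, stood at 6.43 in siKMO and 5.84 in siCon, at least 1.35-fold higher with the control level taken as 6.

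**Figure D3:**
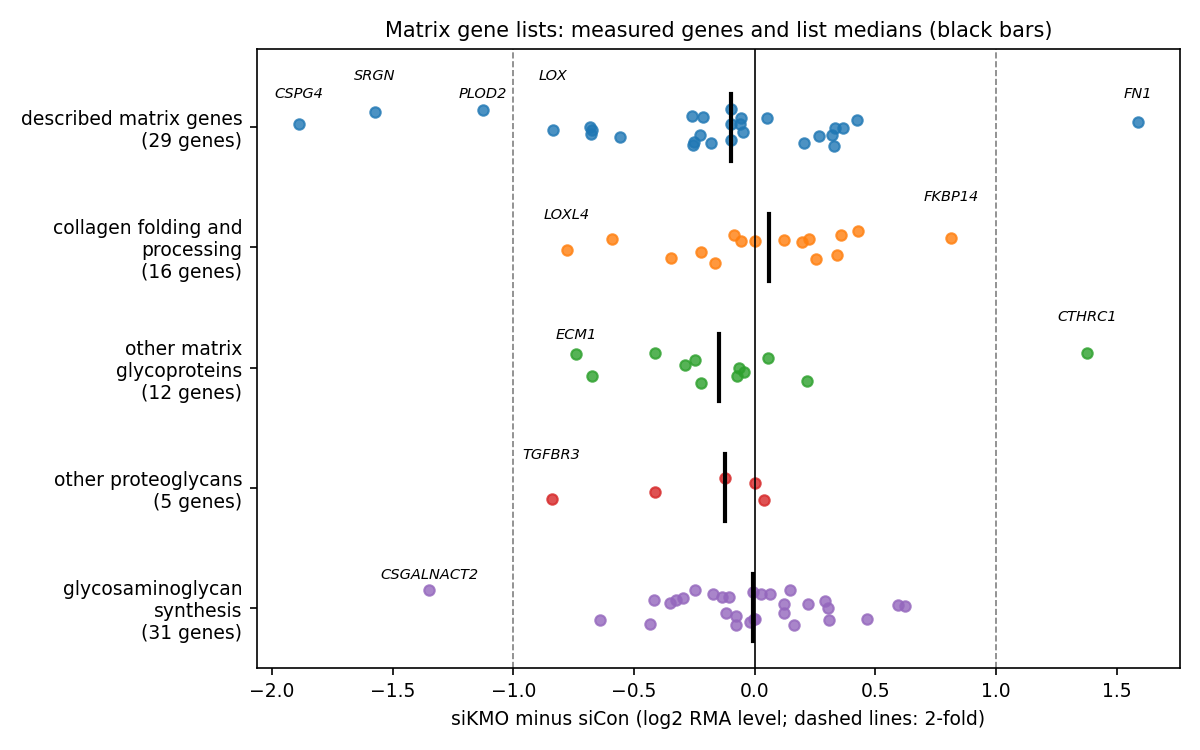
Differences (siKMO minus siCon, log2 RMA level) of the measured genes among the 45 matrix genes and in 4 other matrix lists, each point 1 gene and each black bar the median of its row; vertical scatter within a row has no meaning. Points lie on both sides of 0 in every row, and CTHRC1 and CSGALNACT2 lie past the 2-fold lines outside the 45 genes.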

How the data were processed

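RNA was measured on 2 Affymetrix U133 Plus 2.0 arrays, 1 per condition. The deposited values are log2 levels made by RMA, per the labels, with Affymetrix Expression Console, per the submitters' processing notes; its version, the set of arrays normalized together and any genome build are not stated there. RMA gives neither a detection call nor a true zero: weak probe sets sit at a background level and their differences are compressed; the number of arrays limits the precision. Of 54675 probe sets, 41091 carried exactly 1 gene in the platform's annotation; 41037 symbols were updated by gene identifier through RefSeq (GRCh38.p14) and 54 kept as annotated. Values were computed with Python 3.11.15, pandas 2.3.3 and numpy 2.4.6, as defined in the report. Where 1 level was under 6, folds are lower bounds with it taken as 6, while counts, medians and ranks use the deposited values. The counting of 2-fold genes was tested on simulated data, which checks the arithmetic and not the noise between cultures. Every member could be named; of other lists, genes past 1.5-fold or up to 3 with the largest difference. SERPINH1 was chosen after its value was seen, as were the promoters, the motifs and the genes with unlike probe sets. The members and lists were chosen with earlier results of these data known. Promoter windows were found for 32 of the 45 genes. The alternatives changed the minimum level, the probe sets used, the summary per gene, the floor, the centring, the normalization and the size of difference.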

Additional observations from a re-analysis of the deposited data

How the results depend on the processing

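No paired analysis was possible because each condition has 1 array. FN1 was the gene counted as 2-fold higher. THBS1 joined it, for a count of 2, when each gene was averaged over its probe sets, either all of them or those that passed. Both averages took in THBS1 levels under 6 as deposited. With _x_at and _s_at probe sets left out the count was 1, but the gene was THBS1, at a deposited difference of 3.74 (at least 2.56 with its control level taken as 6), since no FN1 probe set was left above the minimum; SRGN and CSPG4 were then lower, and PLOD2 had no probe set left. The lower genes numbered 3, against 7 at 1.5-fold; a minimum of 7 left out CSPG4, as did the mean of all probe sets, and no minimum added SPARC, whose levels were at background. The median of -0.10 became -0.063 with no minimum, -0.074 with the mean of all probe sets, -0.14 after centring, -0.14 after quantile normalization and 0.049, its sign turned, with _x_at and _s_at left out, when 17 of the 29 genes were measured. CSPG4 differed by -1.24 with levels under 6 taken as 6. With 1 array per condition, none of these settings shows how far cultures of one kind differ.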

Other observations

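THBS1 headed the genes whose passing probe sets gave the most unlike differences, and 37 of 3777 genes had differences at least 1 apart. SRSF1, a splicing factor that regulates its own transcripts, had 5 passing probe sets, which ran from -1.33 (7.40 in siKMO, 8.73 in siCon) to 0.64 (10.06 in siKMO, 9.42 in siCon). CAPRIN1, a protein of RNA granules, ran from -0.83 to 0.57 over 6 probe sets, and SERPINB9, an inhibitor of granzyme B, over 3 from lower by at least 1.01, with a siKMO level of 5.81 taken as 6, to 0.30. For these genes opposite directions were read from 1 pair of RNA samples, whereas the 5 passing THBS1 probe sets were all higher in siKMO. Running one way was not particular to THBS1. PSG5, which ranked 2 by the spread of deposited differences (2.34), had 2 passing probe sets, both lower in siKMO. They stood at 5.50 and 5.997 in siKMO and at 8.09 and 6.24 in siCon. These genes were chosen after their values were seen.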
